A study of Mus musculus with 6 samples.

Results

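The transcripts of the proteasome, the complex that degrades ubiquitin-tagged proteins, were followed in mouse lung fibroblasts after knockdown of Aurkb. Members were taken by gene symbol: each gene named Psma, Psmb, Psmc, Psmd, Psme, Psmf or Psmg with a number, leaving out the interferon-induced core subunits Psmb8 and Psmb9 and interacting proteins whose names end in "ip". This gave 46 of the 14870 genes in the table, of which 45 reached the level needed for testing. Psmb11, the core subunit of thymic epithelium, did not reach it, and Psma8, the alpha subunit of germ cells, was not analysed here.

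The cells were primary lung-resident fibroblasts of TGFalpha mice. These mice carry a TGFα transgene that doxycycline (Dox) food switches on under the club cell promoter CCSP, which directs the transgene to the epithelium. The mice had been on Dox for 10 days, and the study used adult mice of 10 to 16 weeks. Cultured cells received stealth Aurkb siRNA or stealth control siRNA, 3 libraries each, and RNA was taken after 72 h. Both groups therefore carry the transgene, the Dox exposure and a transfection, and the comparison asks what the Aurkb siRNA adds. The paper's methods list a single Aurkb siRNA for mouse cells. Loss of Aurora kinase B mRNA and other effects of that siRNA sequence therefore cannot be told apart here. No source says whether the replicates are separate mice or cultures, so p-values measure the spread between these libraries, which may be technical.

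Between 20820596 and 27572833 reads were counted per library with Aurkb siRNA and between 29350227 and 30441954 with control siRNA. Aurkb itself was at 39.7 ± 12.1 normalized counts with Aurkb siRNA and 114 ± 17.8 with control siRNA (SD, n = 3 libraries each), a log2 change of -1.52 (limma adjusted p = 9.27e-04). A normalized count is a read count divided by the authors' size factor for that library. Of 8 fibroblast markers, 2 were called lower: Pdgfra averaged 13952 normalized counts with Aurkb siRNA and 26626 with control siRNA (log2 change -0.93), and Dcn averaged 28090 against 58901 (log2 change -1.07). The other 6 were not called, among them Vim, at 56659 against 56465 normalized counts. Markers of other cell types moved too. All 5 endothelial markers were called lower, with a summed level of 24.1 to 30.8 RPKM with Aurkb siRNA and 48.4 to 63.8 RPKM with control siRNA. Of the hematopoietic and macrophage markers 2 of 3 tested were called lower, Cd68 (199 ± 59.3 against 645 ± 67 normalized counts) and Lyz2 (164 ± 52.3 against 291 ± 69.8). The groups of Lyz2 overlapped. The summed level of this list was 11.5 to 14.6 RPKM against 31 to 31.6 RPKM. The leukocyte marker Ptprc was below the minimum level, and Adgre1 was not analysed here. Also called lower were 2 of 4 mural markers (Rgs5 and Mcam), 1 of 4 mesothelial (Lrrn4) and 1 of 4 epithelial (Sftpc). Sftpc had only 8 to 34 reads a library. By contrast, 4 of 5 neutrophil granule genes were called higher, with a summed level of 6.86 to 7.95 RPKM against 1.59 to 2 RPKM. These 4, Mpo, Elane, Ngp and Ctsg, had only 17 to 80 reads a library with Aurkb siRNA and 0 to 2 with control siRNA. Prtn3, which was not called (log2 change -0.27), made up nearly all of the control sum, at 1.9, 2 and 1.56 RPKM. Among all genes tested, 7.67% were called lower and 4.64% higher. What part these cells have in the proteasome values was not tested. In such bulk RNA, fewer cells of a type and less RNA per cell cannot be told apart.

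The proteasome is a barrel of stacked rings capped at its ends. Alpha subunits (Psma) form the outer rings and gate the barrel, and beta subunits (Psmb) form the inner rings that hold the proteolytic sites. The cap, or regulatory particle, has a base of ATPases (Psmc) that unfold the substrate and a lid of Psmd subunits, including the enzyme that removes ubiquitin. Psmg proteins and Psmd5, Psmd9 and Psmd10 are chaperones that help to build the complex and then leave it, and Psme proteins and Psmf1 are alternative caps or regulators of the barrel. Fibroblasts use the proteasome to remove cell cycle regulators, among them mitotic kinases, and misfolded proteins.

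Proteasome mRNAs changed little as a group, and the clear exception was an assembly factor. With Aurkb siRNA, Psmg4 fell to 48.2% of its control siRNA level, and the lid subunit Psmd6 fell to 79.2%. Small rises of 1.10-fold to 1.16-fold were found for 9 subunits of the barrel and cap, among them Psmd14, Psmd11, Psmd12 and Psmc2. Of the 45 members tested, 0 were called higher and 1, Psmg4, was called lower at a limma adjusted p of 0.05 or less and a change of at least 1.5-fold, where 4.64% of all 13906 genes tested were called higher and 7.67% were called lower. By limma's voom the counts were likewise 0 and 1, and at an unadjusted p of 0.05 or less, whatever the fold, 14 members were higher and 7 lower, against 24.1% and 24.9% of all genes tested. Without the fold limit, 9 members rose and 6 fell at an adjusted p of 0.05 or less, against 19.5% and 20.5% of all genes. The count of members that fell was 3 without the third Aurkb siRNA library and 3 without the second control siRNA library. With the replicate number as a block the counts were 11 and 7, against 23.3% and 24.8% of all genes, and the added members were Psmb5 and Psmb6 higher and Psmb4 lower.

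The spread of the members was narrow. Their median log2 change was 0.08, with 33 positive and 12 negative values and an SD of 0.21, or 0.13 without Psmg4. The median of all genes tested was 0.00, with an SD of 0.47 and 50.4% positive values. The 95% interval of the change lay inside 1.5-fold in both directions for 43 of 45 members, against 63.8% of all genes tested. The genes tested reach down to a mean of 10 normalized counts and were not matched to the members for level. Both the SD and the interval width can depend on level, and what part level has in these contrasts was not tested. The exceptions were Psmg4 and Psme2b, a near copy of Psme2 with few reads. In 18 members each Aurkb siRNA library lay above each control siRNA library, against 26% of all genes, and in 7 each lay below, against 26.2% of all genes. These shares of all genes stand beside every later mention of groups that did not overlap.

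**Figure D1:**
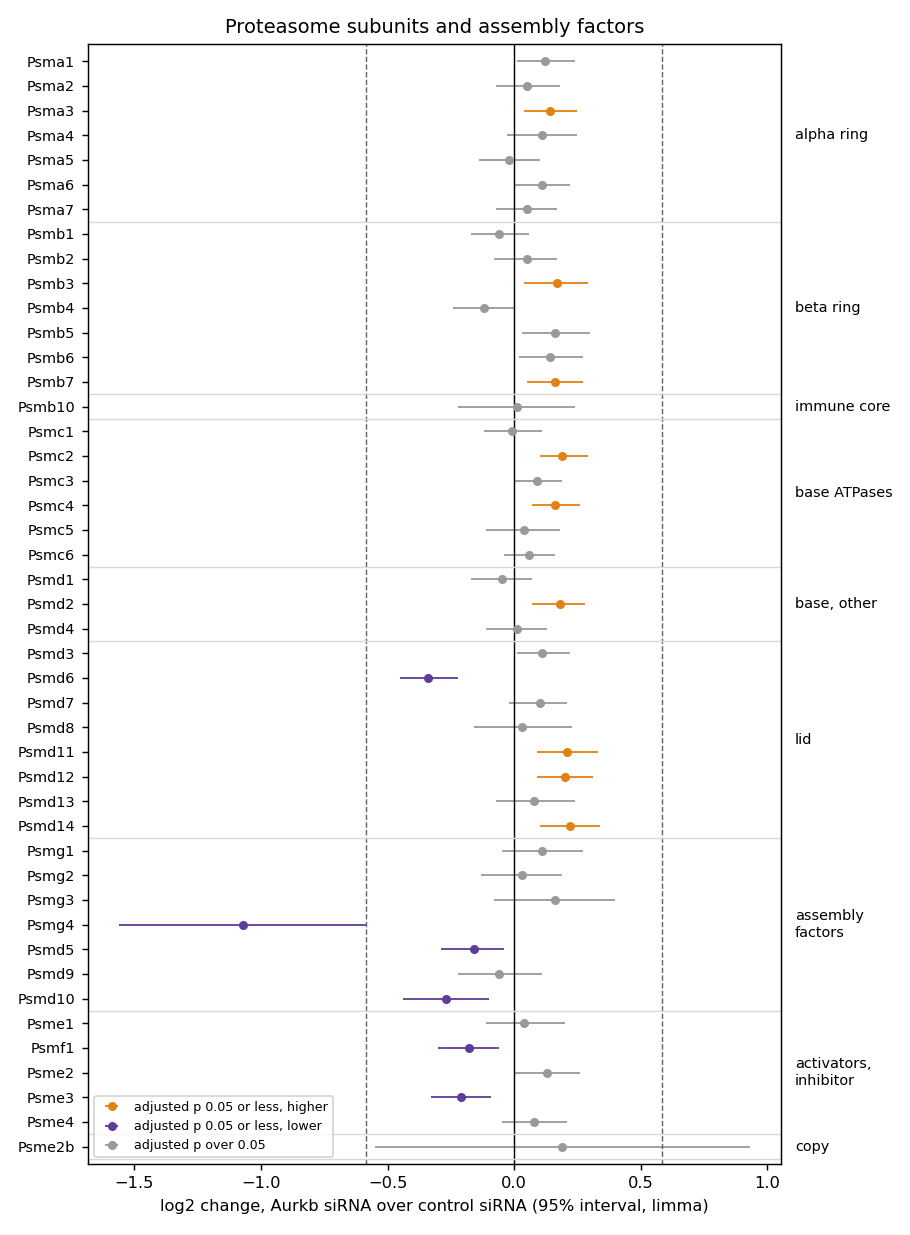
Log2 change with its 95% interval (limma, x axis) for the 45 members tested, Aurkb siRNA over control siRNA, grouped by role; dashed lines mark 1.5-fold. Psmg4, at -1.07, is the one member whose estimate lies beyond the dashed lines, and the subunits of the rings, base and lid lie between -0.34 and 0.22.

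Sequences are shown first for the members that fell, because 3 of them share a short word. The words AACGTGT and ACGTGTA, which overlap in AACGTGTA, were searched on the sense strand of GENCODE M21 transcripts (GRCm38). They were picked earlier on these same libraries for the fall of the genes that hold them, and Aurkb holds both in its coding sequence, so the shares below are a description and no independent evidence. Each site is given 5′ to 3′ with AACGTGT in capitals. Psmg4 holds it in the 3' UTR on the plus strand at chr13:34178124-34178130, Psmd6 in the 3' UTR on the minus strand at chr14:14112272-14112278, Psmd5 in the coding sequence on the minus strand at chr2:34856539-34856545, and Aurkb in the coding sequence on the plus strand at chr11:69048235-69048241.
Psmg4: aagagtttgtAACGTGTatataaatga
Psmd6: gccacttttcAACGTGTtcctttacag
Psmd5: acccgctttgAACGTGTcctcatgaga
Aurkb: caaatttggaAACGTGTacttggctcg
The Psmg4 and Aurkb sites go on with an A, which makes the second word as well, while the Psmd6 and Psmd5 sites do not. Of the 6 members that fell, 3 hold a word, and of the 39 other members tested, 0 do. Among all genes tested whose transcripts were searched, 14.7% hold a word, as do 29.4% of the genes that fell and 35.1% of the genes called lower. The fallen members Psmd10, Psme3 and Psmf1 hold neither word. Whether the word has a part in any of these falls was not tested.

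Assembly factors held 3 of the 6 members that fell and 0 of the 9 that rose, and they number 7 of the 45 members tested. Beside this and the later counts by role, 20.5% of all genes tested fell and 19.5% rose. With so few genes in a role, such counts are a description. Psmg4 lies on chromosome 13 (GRCm38.p6, 34162964 to 34178172) and encodes a chaperone that pairs with Psmg3 and helps to start the alpha ring. It was at 48, 80.7 and 78.9 normalized counts in the Aurkb siRNA libraries and at 143, 167 and 122 with control siRNA, with 50, 78 and 60 reads behind these values against 159, 181 and 133 reads. The groups did not overlap, and the first Aurkb siRNA library was the lowest. The log2 change was -1.07 (standard error 0.22, 95% interval -1.56 to -0.58, limma adjusted p = 0.00429), and it ran from -1.20 to -0.83 when single libraries were left out. Psmg4 was also the lowest member of this set per length, at 4.6 RPKM with Aurkb siRNA and 9.55 RPKM with control siRNA, where RPKM is a read count set per length of the transcript and per library depth.

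For the partner of Psmg4 no fall was found. Psmg3 was at 266 ± 28.5 normalized counts with Aurkb siRNA and 238 ± 14.5 with control siRNA, a log2 change of 0.16 with a 95% interval from -0.08 to 0.40 and overlapping groups. The other pair of alpha ring chaperones, Psmg1 and Psmg2, had log2 changes of 0.11 and 0.03 (limma adjusted p = 0.246 and 0.733). Per length, Psmg3 averaged 11.7 RPKM with Aurkb siRNA and 10.4 RPKM with control siRNA.

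The chaperones of the base moved less. Psmd10, or gankyrin, which binds the ATPase Psmc4 during assembly and is also known as an oncoprotein in liver, was at 592, 632 and 547 normalized counts in Aurkb siRNA cells and 747, 725 and 662 in control siRNA cells. Its groups did not overlap, and the log2 change was -0.27 (limma adjusted p = 0.0214, and 0.0812 without the third Aurkb siRNA library). Its adjusted p also exceeded 0.05 without the first or the second control siRNA library. Psmd5, a chaperone of the base ATPases, was at 1129, 1261 and 1221 normalized counts in Aurkb siRNA cells and 1366, 1321 and 1357 in control siRNA cells, a log2 change of -0.16 (limma adjusted p = 0.0439). Again each Aurkb siRNA library was below each control siRNA library, but the adjusted p exceeded 0.05 in 5 of the 6 fits that left out 1 library, the exception being the second Aurkb siRNA library, and reached 0.152 without the first Aurkb siRNA library. Psmd9, the remaining base chaperone, had a log2 change of -0.06 (limma adjusted p = 0.551).

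**Figure D2:**
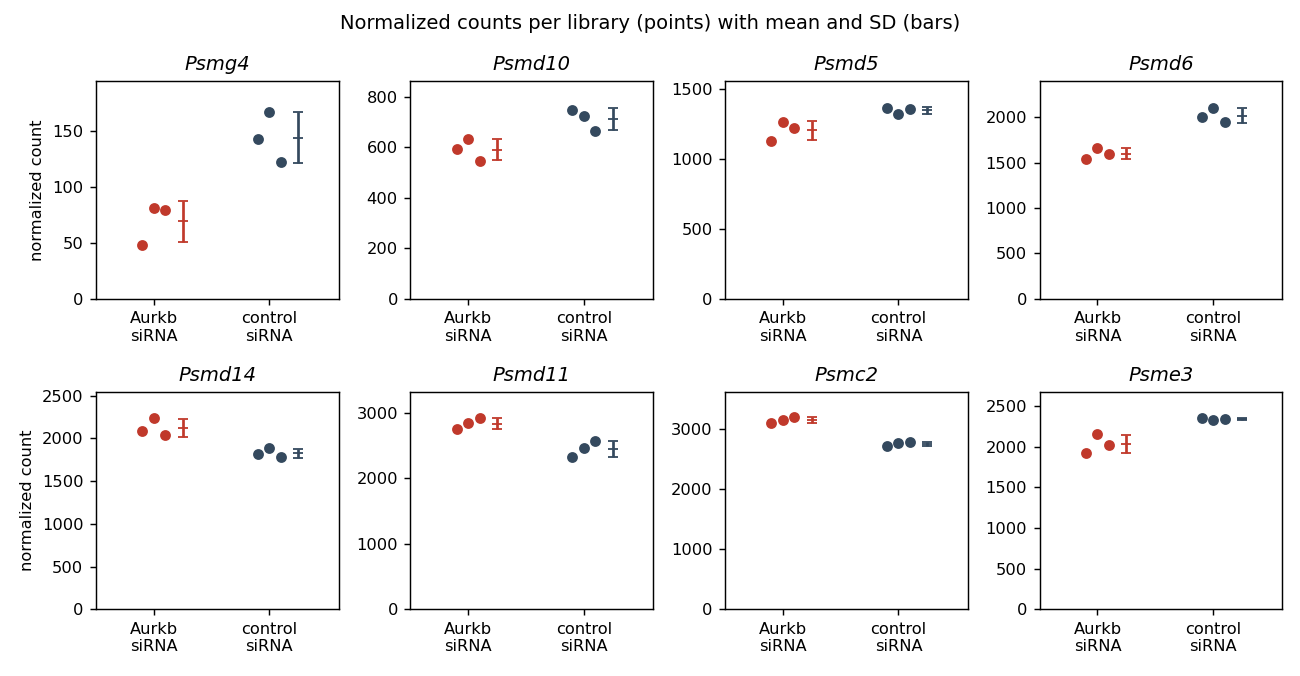
Normalized counts (y axis, from 0) of 8 members in each library, Aurkb siRNA left and control siRNA right, with the mean and SD beside the points. Psmg4, Psmd10, Psmd5, Psmd6 and Psme3 are lower and Psmd14, Psmd11 and Psmc2 higher with Aurkb siRNA, without overlap between the groups. Of all genes tested, 26.2% lay wholly below and 26% wholly above in the same way.

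The lid held the member with the smallest adjusted p. Psmd6, a scaffold subunit of the lid (chromosome 14, 14112185 to 14120945, GRCm38.p6), was at 1546, 1660 and 1597 normalized counts in Aurkb siRNA cells and 2001, 2107 and 1954 in control siRNA cells. The highest Aurkb siRNA library lay below the lowest control siRNA library. The log2 change was -0.34 (standard error 0.05, 95% interval -0.45 to -0.22, limma adjusted p = 0.00109), which is short of 1.5-fold, and it ran from -0.36 to -0.31 over the fits that left out 1 library.

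Of the other lid subunits with a Psm symbol, 3 rose and 0 fell. Psmd14, the metalloprotease that cuts ubiquitin chains from the substrate, was at 2083, 2239 and 2045 normalized counts in Aurkb siRNA cells and 1814, 1884 and 1780 in control siRNA cells. This log2 change of 0.22 (limma adjusted p = 0.0104) was the highest among the members that passed the test. Psmd11, which helps to hold the lid on the base and barrel, was at 2746, 2844 and 2917 against 2318, 2456 and 2570 normalized counts, a log2 change of 0.21 (limma adjusted p = 0.0116), although without the third Aurkb siRNA library its adjusted p was 0.0519. Psmd12, another scaffold subunit, was at 2255, 2280 and 2191 normalized counts in Aurkb siRNA cells and 1926, 2030 and 1902 in control siRNA cells (log2 change 0.20, limma adjusted p = 0.00959). For these 3 lid genes each Aurkb siRNA library was above each control siRNA library, as for 26% of all genes tested. Psmd3, Psmd7, Psmd8 and Psmd13 had log2 changes between 0.03 and 0.11 and did not pass. Psmd8 varied most between replicates of the lid subunits, at 5924, 4832 and 4908 normalized counts in Aurkb siRNA cells and 5319, 5256 and 4680 in control siRNA cells, and its groups overlapped.

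In the base, 3 of 9 subunits rose and 0 fell. Psmc2, one of the ATPases that thread the protein into the barrel, was at 3102, 3157 and 3198 normalized counts in Aurkb siRNA cells and 2725, 2775 and 2785 in control siRNA cells. The replicates of Psmc2 lay close together, the groups did not overlap, and the log2 change was 0.19 (standard error 0.04, limma adjusted p = 0.00679). Psmc4, the ATPase that gankyrin binds, was at 2567, 2573 and 2543 against 2260, 2337 and 2262 normalized counts, a log2 change of 0.16 (limma adjusted p = 0.0149). Psmd2, a scaffold of the base on which shuttle proteins dock, was at 8592, 8774 and 8228 against 7423, 7556 and 7624 normalized counts and was the member with the most counts in each group (log2 change 0.18, limma adjusted p = 0.0146). The ubiquitin receptor Psmd4 had a log2 change of 0.01 with a 95% interval from -0.11 to 0.13. The remaining base subunits, Psmc1, Psmc3, Psmc5, Psmc6 and Psmd1, ranged from -0.05 to 0.09.

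The barrel showed the same small scale of change. Of 7 alpha subunits 1 rose, Psma3, at 3997, 3995 and 3967 normalized counts in Aurkb siRNA cells and 3553, 3791 and 3494 in control siRNA cells (log2 change 0.14, limma adjusted p = 0.0386). The others did not pass, with log2 changes of -0.02 for Psma5, 0.05 for Psma2 and Psma7, 0.11 for Psma4 and Psma6 and 0.12 for Psma1. Of 7 beta subunits, Psmb3 and Psmb7 rose, while Psmb1 and Psmb2, at -0.06 and 0.05, did not pass. Psmb3, which has no proteolytic site, was at 2139, 2118 and 1987 against 1811, 1966 and 1793 normalized counts (log2 change 0.17, limma adjusted p = 0.0408). Psmb7, the trypsin-like protease, was at 2976, 2912 and 2947 against 2581, 2769 and 2559 normalized counts (log2 change 0.16, limma adjusted p = 0.0258), but 405 of its 1160 exonic bases lie in exons of Nek6 on the opposite strand, and the strand setting of the counting is not given in the sources used here. Psma3, Psmb3 and Psmb7 lost the adjusted p of 0.05 in 5, 4 and 4 of the 6 fits that left out 1 library, with largest values of 0.119, 0.126 and 0.085, each without the third control siRNA library. The first Aurkb siRNA library and the first control siRNA library decided all 3 of these calls as well, the second Aurkb siRNA library those of Psma3 and Psmb3, and the third those of Psma3 and Psmb7.

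The other proteolytic subunits had changes of similar size. Psmb5, the chymotrypsin-like protease that bortezomib blocks, was at 1714, 1826 and 1809 normalized counts in Aurkb siRNA cells and 1511, 1709 and 1559 in control siRNA cells. Its log2 change of 0.16 did not pass in the unpaired fit (limma adjusted p = 0.0532) and passed with the replicate number as a block (adjusted p = 0.0152). Psmb6, the caspase-like protease, was at 2210, 2224 and 2216 against 1896, 2155 and 1973 normalized counts, with a log2 change of 0.14 (limma adjusted p = 0.0669, and 0.0304 with the block). Psmb4, which has no proteolytic site, went the other way, at 3136, 3302 and 3229 against 3412, 3718 and 3387 normalized counts and a log2 change of -0.12 (limma adjusted p = 0.0945, and 0.0365 with the block). In each of these 3 genes the groups did not overlap, but 26% of all genes tested lay wholly above and 26.2% wholly below in the same way.

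Summed over roles, proteasome mRNA stayed close to its control level. Summed RPKM over all members was 2850, 2759 and 2728 with Aurkb siRNA and 2607, 2794 and 2577 with control siRNA, or 0.709% and 0.687% of the RPKM of all genes. The mean ratio was 1.05, and the second control siRNA library lay within the range of the Aurkb siRNA libraries. The ratio was 1.06 for the alpha ring, 1.04 for the beta ring, 1.06 for the base and 1.05 for the lid. It was 0.93 for the assembly factors, at 100.4, 104.6 and 100.8 RPKM against 110.3, 114.6 and 103.9 RPKM, where the third control siRNA library lay within the Aurkb siRNA range. The second control siRNA library was the highest of its group in 35 of the 45 members tested, and the third was the lowest in 27. No test was made of these sums, since the members were chosen with results known.

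**Figure D3:**
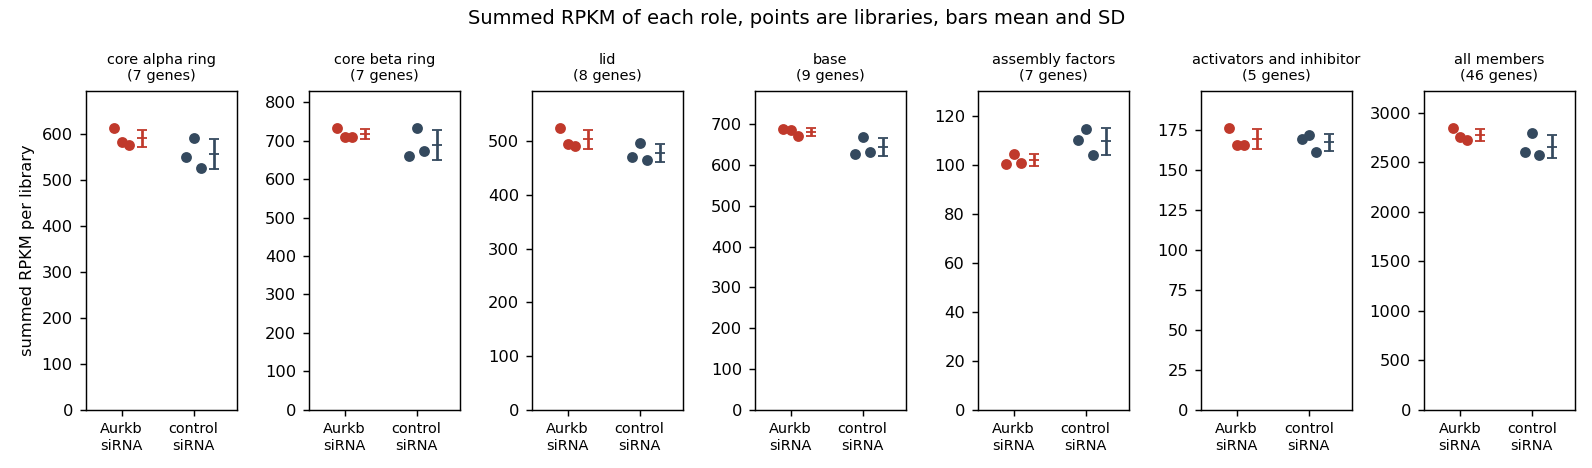
Summed RPKM per library (y axis, from 0) for each role and for all 46 members, Aurkb siRNA left and control siRNA right, with the mean and SD beside the points. The base reached 670.1 RPKM or more with Aurkb siRNA and 669.7 RPKM or less with control siRNA, and the assembly factors are the one role with a lower mean with Aurkb siRNA.

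Per length, the 31 subunits of rings, base and lid lay within a narrow band. They ran from 45.6 RPKM (Psmd6) to 133 RPKM (Psmb1) with Aurkb siRNA, a range of 2.92-fold, and from 41.7 RPKM (Psmd12) to 138 RPKM (Psmb1) with control siRNA, a range of 3.32-fold. Next to Psmb1 in the order came Psma2, at 130 ± 3.18 RPKM with Aurkb siRNA and 125 ± 8.44 RPKM with control siRNA, Psmd8, at 128 ± 17.6 against 124 ± 8.51 RPKM, and Psmb4, at 125 ± 1.46 against 136 ± 7.68 RPKM. Neighbours among these 4 genes differed by less than the larger of their SDs, except Psmb4 and Psma2 with control siRNA. The assembly factors lay below this band, from 4.6 RPKM (Psmg4) to 21.8 RPKM (Psmg2) with Aurkb siRNA and from 9.55 RPKM (Psmg4) to 24.3 RPKM (Psmd5) with control siRNA. Psmb10, a core subunit of the immunoproteasome, was at 14.5 RPKM against 14.3 RPKM. Psmb11 was at 5.76, 13.5 and 7.89 normalized counts in Aurkb siRNA cells and 7.17, 10.1 and 7.32 in control siRNA cells, or 0.0783 and 0.0712 RPKM on average.

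**Figure D4:**
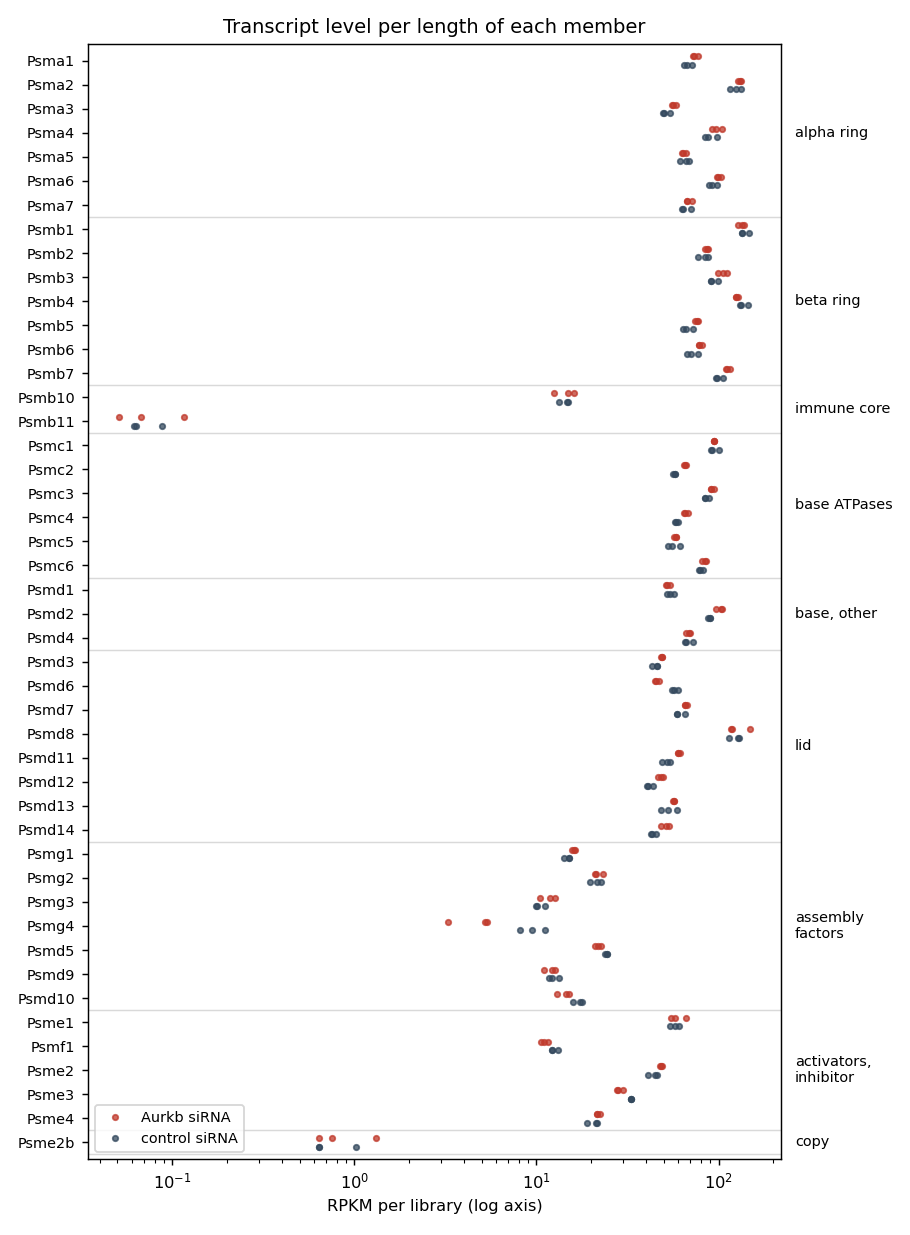
RPKM of each of the 46 members in each library (x axis, log scale), with Aurkb siRNA points above control siRNA points in each row. Subunits of rings, base and lid form a band between 41.7 and 138 RPKM on average, and the assembly factors lie below it.

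Among the regulators of the barrel, 2 of 5 fell. Psme3, the nuclear activator that acts without ubiquitin and is known for degrading cell cycle inhibitors, was at 1925, 2153 and 2018 normalized counts in Aurkb siRNA cells and 2357, 2334 and 2342 in control siRNA cells (log2 change -0.21, limma adjusted p = 0.0124). Psmf1, first described as an inhibitor of the barrel, was at 1079, 1037 and 1074 against 1172, 1270 and 1180 normalized counts (log2 change -0.18, limma adjusted p = 0.0259). Neither gene had overlapping groups, and 26.2% of all genes tested lay wholly below in the same way. For Psmf1 the adjusted p was 0.0712 without the second control siRNA library, and it also exceeded 0.05 without the second or the third Aurkb siRNA library. The interferon-inducible caps Psme1 and Psme2 had log2 changes of 0.04 and 0.13, and Psme4, the activator known for the removal of histones in sperm development, had 0.08, none of which passed. Psme2b was at 21.1, 18.6 and 38.1 normalized counts in Aurkb siRNA cells and 29.6, 18.4 and 18.3 in control siRNA cells, and its reads cannot be separated with certainty from those of Psme2.

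Subunits and other proteasome factors without a Psm symbol gave values of the same order. Shfm1, now called Sem1, a small subunit of the lid, was at 1432, 1444 and 1376 normalized counts in Aurkb siRNA cells and 1736, 1814 and 1654 in control siRNA cells, a log2 change of -0.29 (limma adjusted p = 0.00253). Akirin2, which brings proteasomes into the nucleus, was at 2083, 1923 and 2002 against 1766, 1759 and 1711 normalized counts, a log2 change of 0.20 (limma adjusted p = 0.0115). Pomp, the chaperone of the beta ring, had 0.06 (limma adjusted p = 0.542). Adrm1 and AI314180 had log2 changes of -0.01 and 0.05 (limma adjusted p = 0.833 and 0.504). Of the 5 such genes tested, 1 rose, 1 fell and 0 were called at 1.5-fold.

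Around the proteasome, 56 genes of ubiquitin supply, delivery, extraction, transcriptional control and antigen presentation were tested as lists, counting these 5. Of them 0 were called higher and 2 lower by limma and by voom, against 4.64% and 7.67% of all genes tested by limma. At an unadjusted p of 0.05 or less, whatever the fold, 14 were higher and 16 lower, against the same 24.1% and 24.9% of all genes tested. For the counts that rose or fell in each list, the shares of all genes tested were 19.5% and 20.5%. Genes named here without a call were chosen after their values were seen. Uba6, an enzyme that activates ubiquitin, rose to 1478, 1519 and 1408 normalized counts with Aurkb siRNA, against 1070, 1005 and 1163 with control siRNA (log2 change 0.44, limma adjusted p = 8.01e-04), and was the 1 of 6 genes in its list that rose. Of 11 shuttle factors and proteasome deubiquitinases 5 rose and 1 fell. Rad23b, a shuttle that carries ubiquitin-tagged proteins to the cap, was at 7117, 7038 and 7308 normalized counts against 5378, 5286 and 5529 (log2 change 0.41, limma adjusted p = 1.81e-04), and Zfand5, which stimulates the proteasome in wasting muscle, was at 2551, 2387 and 2283 against 3302, 3117 and 3228 (log2 change -0.42, limma adjusted p = 4.11e-04). Of 10 genes of the segregase p97 and its cofactors, 3 rose and 4 fell.

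Among 14 regulators of proteasome transcription, 2 rose and 5 fell, and 1 was called. Bach1, a repressor that competes at antioxidant response elements, was at 1028, 1123 and 1024 normalized counts in Aurkb siRNA cells and 1928, 1665 and 1890 in control siRNA cells (log2 change -0.79, limma adjusted p = 6.1e-05). Nfe2l1, the main activator of proteasome genes when the proteasome is blocked, was at 11664, 12413 and 12382 against 10284, 11849 and 11676 normalized counts, with overlapping groups (log2 change 0.11, limma adjusted p = 0.205). Maff and Hsf1 rose, with log2 changes of 0.54 and 0.27. Besides Bach1, Mafg, Nfyc, Stat3 and Foxo4 fell, with log2 changes of -0.44, -0.48, -0.28 and -0.52. In RefSeq promoters (GRCm38.p6, the stretch around the start of the gene), 38 of the 45 members tested were matched. The element core TGACNNNGC on either strand was in 6 of these 38, or 15.8%, against 17% of the tested genes with a promoter. The CCAAT box, the site of the factor NF-Y, was in 12 of 38, or 31.6%, against 42.8% of the tested genes. Both motifs were searched as letters alone, and the shares are a description.

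In the list of antigen presentation and interferon regulators, 2 of 10 genes rose and 4 fell. Tapbp, or tapasin, which loads peptides made by the proteasome on class I molecules, was called lower at 4145, 3102 and 3737 normalized counts in Aurkb siRNA cells and 5715, 5323 and 5396 in control siRNA cells (log2 change -0.59, limma adjusted p = 0.00121). Its estimate sits at the 1.5-fold limit, and it was not called with upper quartile scaling, quantile normalization or RPKM values, without the second Aurkb siRNA library or without the first control siRNA library. The median log2 change of the list was -0.28, against 0.00 for all genes tested, while the immune core subunit Psmb10 had 0.01 and the interferon-inducible caps lay at 0.04 and 0.13.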

How the data were processed

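RNA of lung-resident fibroblasts was measured in 3 libraries with Aurkb siRNA and 3 with control siRNA, grouped by the titles and treatment labels. The authors' processing, by the notes of the submitters, went through bcl2fastq, CASAVA 1.8, TopHat and DESeq with genome mm10, and annotation, counter and strand setting are not given. The authors deposited an RPKM value for each gene and library, a unit inferred from the values. The signal values deposited by the authors beside them are DESeq means of size-factor-scaled read counts over all libraries and over each group. Columns of the authors' own comparison (fold changes and p-values) were not used. Whole reads behind the RPKM values were recovered from these columns: 100% of 89220 values were whole within 0.001. Dividing them by the size factors (0.7608 to 1.1155) gave normalized counts. RefSeq gives the coordinates (GRCm38.p6) and GENCODE M21 the transcripts.

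The 13906 genes that averaged 10 or more normalized counts with either siRNA were fitted by limma 3.58.1 (R 4.3.3, trend on, 4 residual degrees of freedom) as log2(normalized count + 1), which understates the change of low genes, with Benjamini-Hochberg adjustment over all of them. A call needed an adjusted p of 0.05 or less and at least 1.5-fold, and "rose" or "fell" refers to the adjusted p alone. The script was also run on simulated data, whose libraries were drawn independently, with no shared effect of the replicate number. Same-numbered libraries of the groups deviated together, with correlations of 0.395, 0.173 and 0.214 across genes, against -0.243 to 0.0492 for other pairs. Deviations from a group mean cancel out, so positive pairs make others negative and this contrast is partly built in. A second fit had the number as a block. Alternatives were other scalings, RPKM values, voom, pseudocounts, level minimums, no fold limit and leaving out each library. The text names all members and, of the pathway lists, the called genes, while markers are given mostly as counts. Members and lists were chosen with earlier results of these data known. Exons of 11 members overlap another gene, in 7 of them on the opposite strand. Python 3.11.15, pandas 2.3.3 and matplotlib 3.10.9 made tables and figures.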

Additional observations from a re-analysis of the deposited data

How the results depend on the processing

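The call of Psmg4 held in the 15 alternative fits, with log2 changes from -1.20 to -0.83, and no other member was called in any of them. Members higher at an adjusted p of 0.05, whatever the fold, numbered 6 to 12 when 1 library was left out, and members lower 3 to 5. With no minimum fold the calls were 9 higher and 6 lower for members, 2711 and 2850 for all genes, and 14 and 15 for the other lists. With log2(RPKM + 1), 311 genes were higher and 531 lower. In the other lists, 1 gene was called lower with upper quartile scaling, with quantile normalization and with log2(RPKM + 1), and leaving out 1 library gave 0 to 1 higher and 1 to 4 lower. The causes of these differences were not tested. With the replicate block, members higher at an adjusted p of 0.05 numbered 11 and lower 7, and no call of a member changed. The sign of the log2 change turned in at least 1 alternative for 10 members, 0 of which had passed the adjusted p. Psmg4 rests on 50 to 181 reads a library, and its standard error of 0.22 was the largest among the assembly factors.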
